A study of Mus musculus with 8 samples.

Results

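Neurexins, neuroligins and postsynaptic scaffolds are described here as 8 genes, namely the neurexins Nrxn2 and Nrxn3, the neuroligins Nlgn1, Nlgn2 and Nlgn3, and the scaffolds Dlg4, Shank1 and Shank3. They were chosen by name, with earlier results of these data known, and were looked up by Ensembl identifier among the 22430 genes of a count table. All 8 had a mean count over 5 per library, as did 9375 genes of the table, and these were the genes tested. The libraries were made from whole brain hemispheres of male C57Bl/6JRj mice, an inbred strain, at 2 ages. The young adult group (6m) and the aged group (24m) each hold 4 mice, with 1 library per mouse and no genetic or drug treatment in either. RNA molecules were sequenced on nanopores (ONT) by the direct RNA protocol, per the study's methods, and the values are unscaled numbers of reads counted on each gene. What the comparison asks is how the RNA of these genes differs between the brains of young adult and aged mice.

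Neurexins sit in the presynaptic membrane and bind neuroligins of the postsynaptic membrane across the synaptic cleft. Both end inside the cell in a short tail that is gripped by PDZ domains, which are protein modules that recognise the last residues of their partners. Dlg4 encodes PSD-95, the PDZ scaffold that binds neuroligins and glutamate receptors at excitatory synapses, and the Shank proteins form the layer beneath it. Nlgn1 is known from excitatory synapses, Nlgn2 from inhibitory synapses, where gephyrin is the scaffold, and Nlgn3 from both.

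The ends of the coding sequences are shown first because they encode the tails through which these adhesion proteins meet their scaffolds. Each stretch is the last 45 bases of the canonical coding sequence in GRCm39, read on the coding strand, with the final 4 codons in capitals and the stop codon after them. Those of the neuroligins lie at chr3:25487802-25487846 on the minus strand for Nlgn1, chr11:69716029-69716073 on the minus strand for Nlgn2 and chrX:100363824-100363868 on the plus strand for Nlgn3. Those of the neurexins lie at chr19:6582134-6582178 for Nrxn2 and chr12:90299140-90299184 for Nrxn3, both on the plus strand.
Nlgn1: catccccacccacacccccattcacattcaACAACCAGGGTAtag
Nlgn2: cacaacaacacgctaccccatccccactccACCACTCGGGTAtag
Nlgn3: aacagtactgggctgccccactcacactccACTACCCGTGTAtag
Nrxn2: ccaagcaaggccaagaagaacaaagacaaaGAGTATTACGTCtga
Nrxn3: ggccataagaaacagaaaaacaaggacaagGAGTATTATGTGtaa
Nlgn2 shared 30 of the 45 bases with Nlgn1 and 31 with Nlgn3, and Nlgn1 and Nlgn3 shared 26. In each of these pairs 9 of the 12 capital bases were identical. Nrxn2 and Nrxn3 shared 29 of the 45 bases and 10 of the 12 capital bases. As DNA these stretches are similar but not the same. Translated, the capital codons read Thr-Thr-Arg-Val in each neuroligin and Glu-Tyr-Tyr-Val in both neurexins. The capital bases that differ within a family thus leave the last 4 residues unchanged. A search of the annotated transcripts found no other gene with at least 95 percent identity over at least 50 percent of any member.

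Counts on genes added up to 573152 to 843706 per library at 6m and to 660398 to 1255424 at 24m, so that 1 count was worth 0.767 to 1.81 CPM, the unit of counts scaled to a common library size, here with TMM factors. The 8 genes together took 4164 counts, from 67 for Nlgn1 to 2136 for Dlg4. Their summed level was 438 to 618 CPM at 6m and 546 to 819 CPM at 24m. The 24m library with the largest total, replicate 4, had the lowest of the 4 sums at that age, and its sum lay inside the 6m range. In a principal component analysis of all tested genes the ages parted on the first component, while 24m replicate 1 stood apart on the second, at 38.4 against -17.5 to 7.48 for the others.

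Of the 8 genes, Nlgn2 and Shank3 rose with age and none fell. Both calls were made with edgeR's quasi-likelihood test, with p adjusted by Benjamini-Hochberg over all tested genes, and a changed gene had an adjusted p (padj) of at most 0.05 and an absolute log2 fold change (log2FC, 24m over 6m) of at least 0.58. Of all tested genes 14.5 percent were changed, 10.3 percent being higher and 4.17 percent lower at 24m, and with 2 calls in 8 genes nothing particular to the set is read from that share. No gene of the set was lower at an unadjusted p under 0.05 either. The levels of 2 of the 8 genes, again Nlgn2 and Shank3, did not overlap between the ages, against 21.1 percent of all tested genes. The log2FC was above 0 for 7 of the 8 genes and its median over them was 0.45, where that over all tested genes was -0.0034. At an unadjusted p under 0.05 stood 4 of the 8, as did 3219 of the 9375 tested genes. In tissue RNA of this kind, a different number of cells of a type and a different amount of RNA per cell cannot be told apart, for a rise or a fall.

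**Figure D1:**
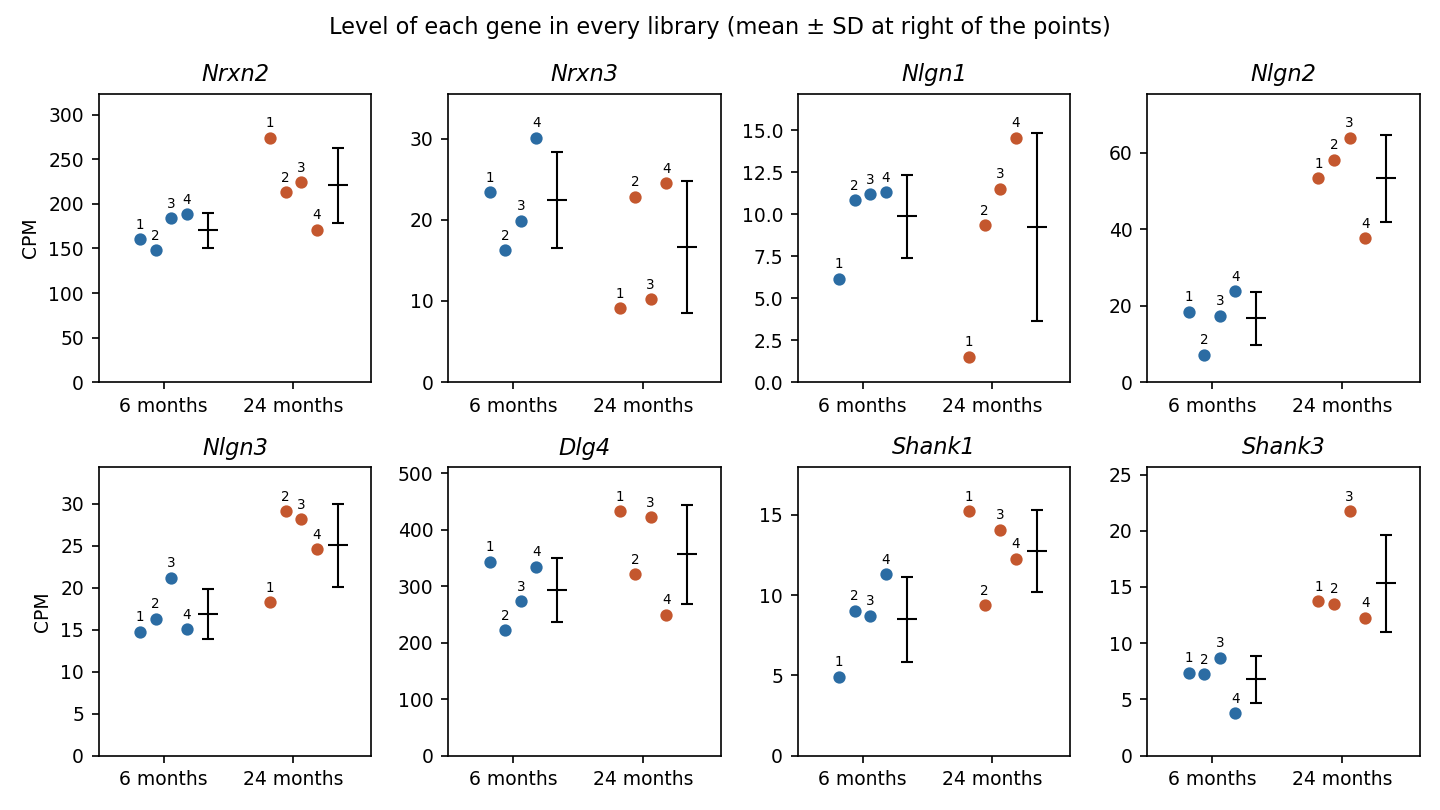
Level of each of the 8 genes in CPM (vertical axis, from 0, a scale of its own per panel) in the 4 libraries at 6 months (blue) and the 4 at 24 months (orange). Numbers are replicates, and the bar at the right of each group is the mean with its SD. The points of the ages stand fully apart only for Nlgn2 and Shank3.

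**Figure D2:**
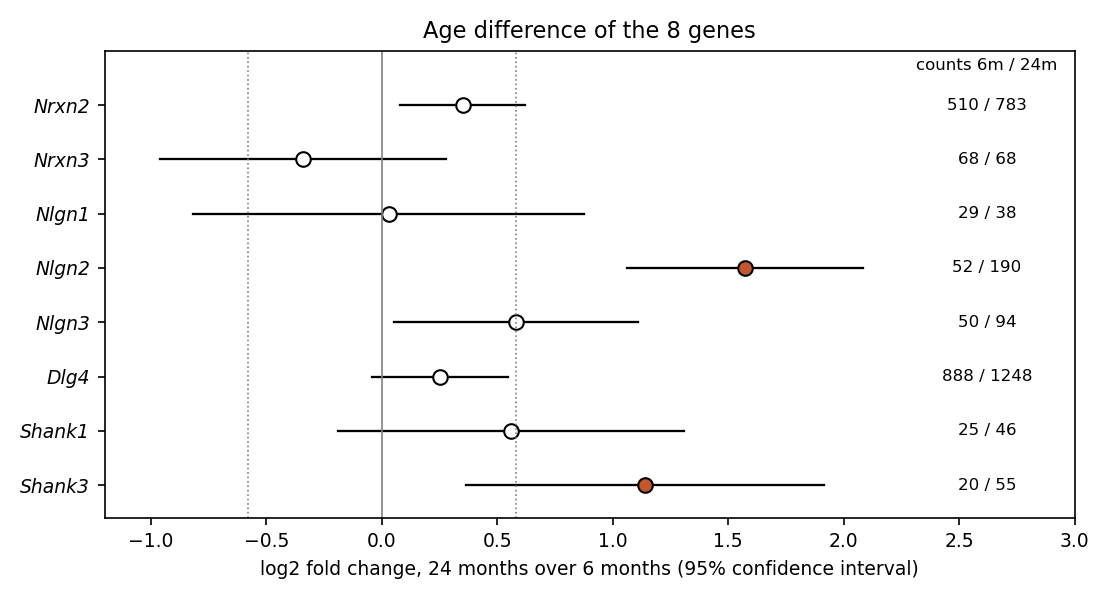
Fitted log2FC (horizontal axis, 24 months over 6 months) of the 8 genes with 95 percent confidence intervals, with filled points for changed genes and dotted lines at the log2FC limit of 0.58 in either direction. Summed counts per age stand at the right. The intervals of Nlgn2 (1.06 to 2.08) and Shank3 (0.36 to 1.91) lie above 0, as do those of Nrxn2 and Nlgn3, which did not pass the adjusted test.

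Nrxn2 encodes a presynaptic neurexin (ENSMUSG00000033768, chromosome 19, 6468761 to 6594199, plus strand). Its level was 160.0, 148, 184 and 188 CPM in 6m replicates 1 to 4 and 274, 213, 224 and 171 CPM in 24m replicates 1 to 4. Of the aged libraries 3 lay above all young ones, while 24m replicate 4 lay among them. The mean level was 170.2 ± 19.2 CPM in young and 221 ± 42.5 CPM in aged mice (SD, n = 4 per age). The log2FC was 0.35 with a 95 percent interval of 0.08 to 0.62 and did not pass (padj = 0.0556, edgeR). It ran from 0.24 without 24m replicate 1 to 0.48 without 24m replicate 4, under the log2FC limit in both, with padj of 0.139 and 0.00731. Reads of Nrxn2 were counted over exons that share 682 bases with Slc22a12 and 207 with Gm14964 on the opposite strand, and whether the counting used strand is not given in the sources used here.

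Nrxn3, the neurexin with the longest gene of the set at 1612 kb (ENSMUSG00000066392, chromosome 12, 88689646 to 90301709, plus strand), was the one gene with a log2FC below 0. Its counts were 19, 9, 16 and 24 at 6m and 6, 22, 8 and 32 at 24m, or 23.4, 16.3, 19.9 and 30.1 CPM and 9.15, 22.9, 10.2 and 24.5 CPM. The aged libraries split, with replicates 1 and 3 under every young library and replicates 2 and 4 among them. The log2FC was -0.34 (95 percent interval -0.96 to 0.28, padj = 0.45, edgeR). With single libraries left out it ran from -0.60 without 24m replicate 4 to -0.16 without 6m replicate 4. At this depth a fall of the size of the lower bound and a rise of the size of the upper bound could not be told from no difference.

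Nlgn2 showed the clearest age difference of the set (ENSMUSG00000051790, chromosome 11, 69713948 to 69728613, minus strand). It encodes the neuroligin of inhibitory synapses and gave 15, 4, 14 and 19 counts at 6m against 35, 56, 50 and 49 at 24m. On the CPM scale these were 18.5, 7.23, 17.4 and 23.9 at 6m and 53.3, 58.2, 64.0 and 37.6 at 24m. Every aged library lay above every young library, and the lowest aged value, that of replicate 4, exceeded the highest young value. The mean went up from 16.7 ± 6.94 to 53.3 ± 11.3 CPM (SD, n = 4 per age), a fitted 2.98-fold difference (log2FC 1.57, SE 0.248, padj = 6.98e-05, edgeR). The call held in each of 19 other fits, in which the log2FC ran from 1.39 to 1.79. No exon of another annotated gene overlaps those of Nlgn2.

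Nlgn3 (ENSMUSG00000031302, chromosome X, 100342750 to 100369570, plus strand), a neuroligin of both excitatory and inhibitory synapses, gave 14.8, 16.3, 21.2 and 15.1 CPM at 6m and 18.3, 29.1, 28.2 and 24.5 CPM at 24m. Aged replicates 2, 3 and 4 lay above all young libraries, and aged replicate 1, the library apart on the second component, lay under the highest young one. The log2FC of 0.58 (95 percent interval 0.05 to 1.11) did not pass (padj = 0.106, edgeR). Without 24m replicate 1 it was 0.68 and passed (padj = 0.0467, edgeR). That was the only 1 of 19 other fits that passed, and the highest padj was 0.381 with DESeq2 on quantile-normalized counts. Of the exon bases of Nlgn3, 3823 are shared with the noncoding gene Gm21986 on the same strand, which is no row of the count table, so reads over them could have come from either.

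Nlgn1, the neuroligin of excitatory synapses (ENSMUSG00000063887, chromosome 3, 25480379 to 26386609, minus strand), was the gene with the fewest counts. They were 5, 6, 9 and 9 at 6m and 1, 9, 9 and 19 at 24m, or 6.15, 10.8, 11.2 and 11.3 CPM and 1.52, 9.36, 11.5 and 14.6 CPM. The aged libraries spread on both sides of the young ones, from the single count of 24m replicate 1 to the highest value in 24m replicate 4. The log2FC was 0.03 with an interval of -0.82 to 0.88 (padj = 0.969, edgeR), which holds differences in either direction. It was 0.31 without 24m replicate 1, and its sign turned in 7 of 18 other fits. Exons of A830092H15Rik overlap 1229 bases of Nlgn1 on the opposite strand.

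Dlg4 (ENSMUSG00000020886, chromosome 11, 69907768 to 69938348, plus strand), which encodes PSD-95, had the most counts of the set. It stands 179 kb from Nlgn2 on the same chromosome. Its level was 343, 222, 274 and 334 CPM at 6m and 433, 321, 422 and 249 CPM at 24m. The ages overlapped, since 24m replicates 2 and 4 lay within the young range. The mean level was 293 ± 56.5 CPM in young and 356 ± 87.4 CPM in aged mice (SD, n = 4 per age), and the log2FC of 0.25 (95 percent interval -0.04 to 0.55) did not pass (padj = 0.221, edgeR). Libraries of the same age differed by far more than counting error for this gene, the chi-square divided by its degrees of freedom being 7.05 at 6m and 21.7 at 24m, where counting error alone gives values near 1. In the aged libraries Dlg4 and Nrxn2 followed the same order, with replicate 1 highest and replicate 4 lowest. Single libraries moved the log2FC of Dlg4 in both directions, to 0.14 without 24m replicate 1, 0.16 without 6m replicate 2 or 24m replicate 3, and 0.42 without 24m replicate 4, all under the log2FC limit. Of these fits only the last had an adjusted p under 0.05 (padj = 0.0226, edgeR).

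Shank3 encodes a scaffold of the postsynaptic density (ENSMUSG00000022623, chromosome 15, 89383826 to 89444464, plus strand). It gave 6, 4, 7 and 3 counts at 6m against 9, 13, 17 and 16 at 24m. The mean count at 6m was not over 5, so Shank3 was tested only through its 24m counts. In CPM the counts were 7.39, 7.23, 8.71 and 3.77 at 6m and 13.7, 13.5, 21.8 and 12.3 at 24m. Every aged library lay above every young one, with 24m replicate 3 well above its 3 neighbours. The mean went up from 6.77 ± 2.11 to 15.3 ± 4.34 CPM (SD, n = 4 per age), a fitted 2.20-fold difference (log2FC 1.14, SE 0.377, padj = 0.0319, edgeR). The call rests on 75 counts in all and was lost without 6m replicate 1 (padj = 0.0607), 6m replicate 4 (0.107), 24m replicate 2 (0.0505) or 24m replicate 3 (0.108), with the log2FC at 0.94 to 1.20 in these fits. It was also lost with DESeq2 and with limma-voom, where the log2FC was 0.96 to 1.17. Exons of Gm15609 share 271 bases with Shank3 on the opposite strand.

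Shank1 (ENSMUSG00000038738, chromosome 7, 43959615 to 44009996, plus strand), a related scaffold, gave 4.92, 9.04, 8.71 and 11.3 CPM at 6m and 15.2, 9.36, 14.1 and 12.3 CPM at 24m. Aged replicates 1, 3 and 4 lay above the young libraries and aged replicate 2 among them. The log2FC of 0.56 (95 percent interval -0.19 to 1.31) did not pass (padj = 0.294, edgeR). At 25 counts in the young libraries and 46 in the aged ones, the interval includes a difference as large as that of Shank3. Exons of 1700008O03Rik share 339 bases with Shank1 on the opposite strand.

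Promoters of both genes that rose are shown, because they are the sequences next to the starts from which these transcripts are annotated. Each is the 250 bases before the canonical start in GRCm39, on the strand of the gene, with capitals for the GC box, searched as GGGCGG on both strands. The window of Nlgn2 is chr11:69728614-69728863 on the minus strand and that of Shank3 is chr15:89383576-89383825 on the plus strand.
Nlgn2: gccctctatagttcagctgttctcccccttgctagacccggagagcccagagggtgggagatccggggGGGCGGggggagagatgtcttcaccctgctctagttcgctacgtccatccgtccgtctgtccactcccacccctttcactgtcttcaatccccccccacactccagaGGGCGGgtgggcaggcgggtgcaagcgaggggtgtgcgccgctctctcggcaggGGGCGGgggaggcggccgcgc
Shank3: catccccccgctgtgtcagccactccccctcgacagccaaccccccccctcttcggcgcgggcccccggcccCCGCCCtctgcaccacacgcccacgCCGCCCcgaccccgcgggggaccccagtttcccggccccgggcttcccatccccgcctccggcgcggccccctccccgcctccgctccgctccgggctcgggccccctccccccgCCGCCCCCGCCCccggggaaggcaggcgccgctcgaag
The GC box stood 3 times in the Nlgn2 window, 4 times in the Shank3 window and once in that of Shank1, and the letters were not found in the windows of the other 5 genes. Of 9336 promoters of tested genes 48.6 percent held it, so its presence sets neither gene apart. The Shank3 window was 82 percent G and C, which is above 99.7 percent of these promoters, and that of Nlgn2 was 68 percent, where the median was 56.8 percent. The Nlgn1 window was 52 percent G and C and held 2 CpG dinucleotides, against 17 for Nlgn2 and 31 for Shank3.

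Per kb of canonical transcript, the order of levels at 6m was Dlg4, Nrxn2, Nlgn2, Nrxn3, Nlgn3, Shank3, Shank1 and Nlgn1. This order depends on the division by length, and counts of direct RNA reads need not grow with transcript length. In CPM without that division, the order of the 6m means was Dlg4, Nrxn2, Nrxn3, Nlgn3, Nlgn2, Nlgn1, Shank1 and Shank3. Dlg4 stood at 53.6 ± 10.3 CPM per kb and Nrxn2 at 25.5 ± 2.89, and these did not overlap each other or any other gene. Nlgn2 at 3.01 ± 1.25, Nrxn3 at 2.83 ± 0.745 and Nlgn3 at 1.96 ± 0.345 CPM per kb overlapped in turn. So did Shank3, Shank1 and Nlgn1, which lay between 0.837 and 0.92 CPM per kb on average. At 24m Nlgn2 stood alone below Nrxn2, at 9.56 ± 2.03 CPM per kb, clear of Nlgn3 at 2.91 ± 0.57. It was clear of Nlgn3 in CPM too (37.6 to 64.0 against 18.3 to 29.1). Shank3 at 2.08 ± 0.589 CPM per kb was clear of Shank1 at 1.29 ± 0.259 only after the division by length. In CPM these 2 genes overlapped at 24m (12.3 to 21.8 against 9.36 to 15.2). Nlgn1 remained last at 0.783 ± 0.472 CPM per kb, overlapping Shank1.

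**Figure D3:**
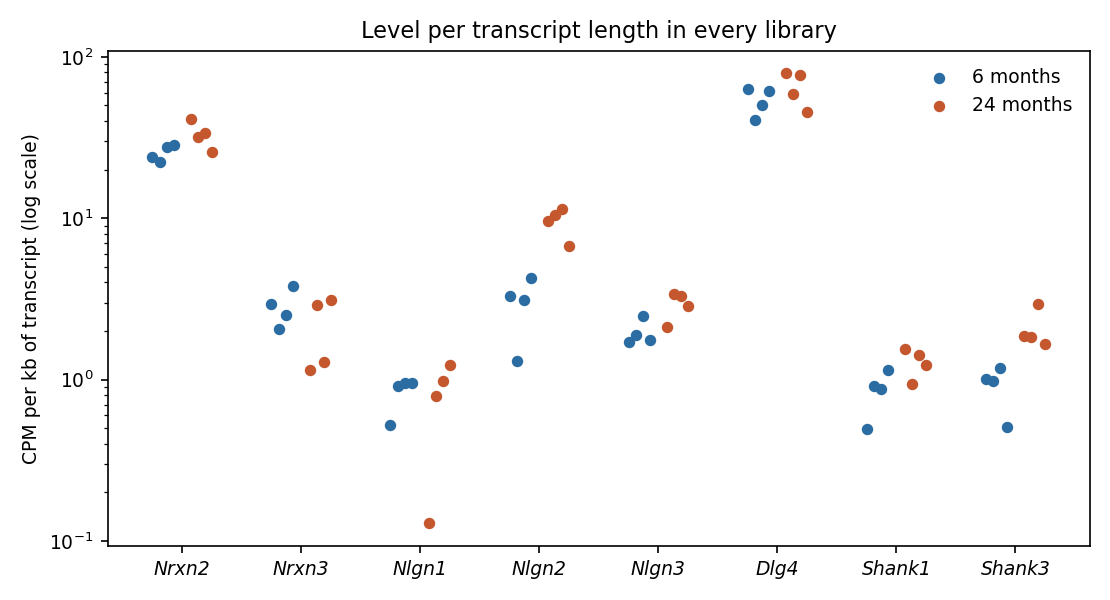
Level of each gene per kb of its canonical transcript (vertical axis, CPM per kb, log scale) in the 4 libraries at 6 months (blue) and 4 at 24 months (orange). Dlg4 and Nrxn2 stand above the rest at both ages, and Nlgn2 moves clear of Nlgn3 and Nrxn3 at 24 months.

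Whether one member of a family moved relative to another was asked of 5 ratios of counts within each library, which do not depend on the scaling of library sizes. The log2 ratio of Nlgn2 to Nlgn1 was 1.49, -0.53, 0.61 and 1.04 in the young libraries and 4.56, 2.57, 2.41 and 1.34 in the aged ones. The aged values were higher except that 24m replicate 4 lay under 6m replicate 1. The mean log2 ratio went from 0.65 ± 0.87 to 2.72 ± 1.34 (SD, n = 4 per age), a difference of 2.07 (two-sided exact permutation p = 0.0571, 0.143 adjusted over the 5 ratios). For Nlgn2 to Nlgn3 the log2 ratio was 0.31, -1.08, -0.27 and 0.64 at 6m and 1.51, 0.99, 1.17 and 0.61 at 24m. Again 1 aged library, replicate 4, lay under 1 young library, by 0.03 on the log2 scale. The difference of the means was 1.17 (exact permutation p = 0.0571, adjusted 0.143).

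The log2 ratios of Nlgn3 to Nlgn1 and of Nrxn2 to Nrxn3 differed between the ages by 0.90 and 0.87, each with an exact permutation p of 0.114 and an adjusted p of 0.143. For both, the spread at 24m (SD 0.998 and 0.952) was larger than at 6m (SD 0.352 and 0.273), and 24m replicate 1 held the highest value, at 3.06 and 4.80. Without that library these differences were 0.44 and 0.53, and that of Nlgn2 to Nlgn1 was 1.46. The ratio of Shank3 to Shank1 differed by 0.54 (exact permutation p = 0.314), and by 0.16 without 6m replicate 4 and 0.82 without 6m replicate 1. All 5 ratios overlapped between the ages and none passed. The 97.1 percent intervals from inverting the permutation test ran from -0.15 to 5.10 for Nlgn2 to Nlgn1, from -0.03 to 2.58 for Nlgn2 to Nlgn3, and from -0.67 to 2.05 for Shank3 to Shank1. The smallest p that 4 against 4 libraries can give is 0.0286, so an adjusted p under 0.05 needed separation in several ratios at once.

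**Figure D4:**
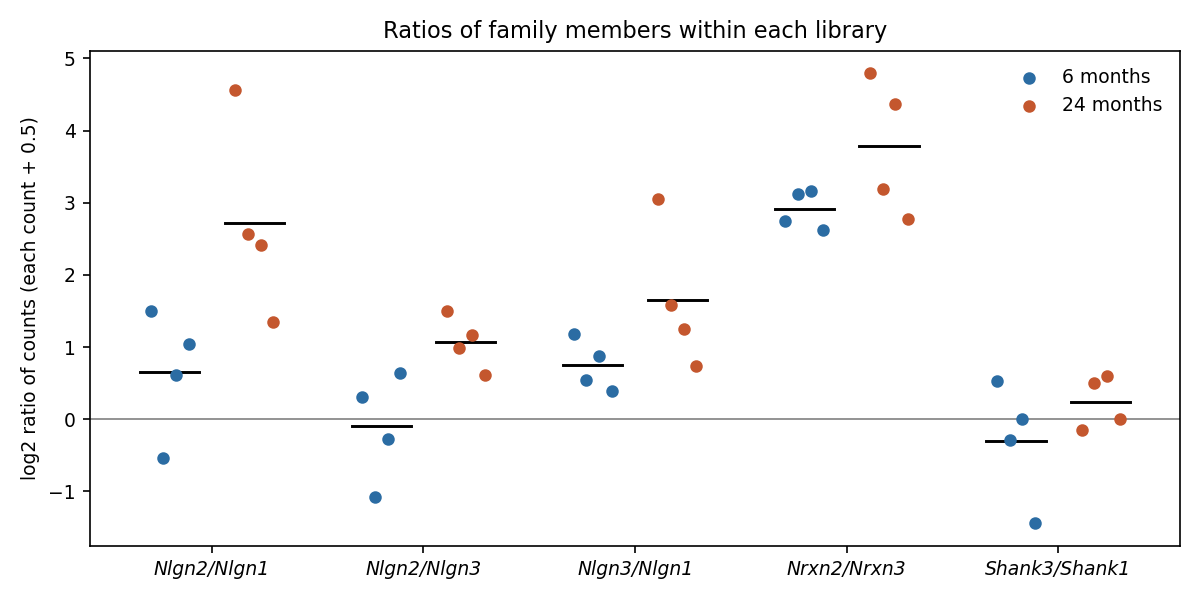
Log2 ratio of the counts of 2 family members within each library (vertical axis, 0.5 added to each count) at 6 months (blue) and 24 months (orange), with a line at the mean of each age. In each of the 5 ratios at least 1 aged library lies within the range of the young ones.

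Other genes of trans-synaptic adhesion, from a list of 57 with 44 tested, included 12 that rose and 2 that fell, and their median log2FC was 0.36. Changed were 31.8 percent of those tested, against 14.5 percent of all tested genes (10.3 percent higher, 4.17 percent lower). Both shares include genes that passed the count limit through the counts of a single age. At an unadjusted p under 0.05 (edgeR), 17 genes of the list were higher and 4 lower, where 3219 of the 9375 tested genes stood in either direction. Nptxr, the neuronal pentraxin receptor, which takes part in gathering AMPA receptors, had 12 to 17 counts at 6m and 46 to 110 at 24m (log2FC 2.20, padj = 7.95e-07, edgeR). It shares 890 exon bases on the same strand with Npcd. Ephb2, an ephrin receptor, had 0, 3, 0 and 4 counts against 6, 15, 7 and 10 (log2FC 2.05, padj = 0.0145), and its call was lost without 6m replicate 1 (padj = 0.0611) or replicate 3 (0.0578). Cbln3, a cerebellin of the family that links neurexins to postsynaptic receptors, had 1 to 4 counts against 5 to 17 (log2FC 1.76, padj = 0.0111, edgeR), and its call was lost with DESeq2 on quantile-normalized counts (padj = 0.0535) and with limma-voom (0.0738). Nptx1, a secreted neuronal pentraxin, had 1 to 3 counts in the young libraries and 4 to 13 in the aged ones (padj = 0.0223, edgeR). Its call was lost without 6m replicate 3 (padj = 0.0834) or 6m replicate 4 (0.0607), with DESeq2 on raw counts (0.0905) and with limma-voom (0.0960). Ephb2, Cbln3 and Nptx1 each had a mean count under 5 at 6m and were tested only through their 24m counts. Without 24m replicate 3, 9 genes of this list were changed.

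Among the genes of this list that fell was Ptprd, a presynaptic receptor phosphatase with its own set of postsynaptic partners. It had 39, 14, 37 and 29 counts at 6m and 5, 11, 8 and 16 at 24m, or 38.9 ± 10.4 CPM in young and 10.4 ± 2.03 CPM in aged mice (SD, n = 4 per age). All 4 aged libraries lay under all young ones in CPM (log2FC -1.87, padj = 1.59e-05, edgeR).

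Other postsynaptic scaffolds (49 in the list, 39 tested) included 6 that rose and none that fell by edgeR, with a median log2FC of 0.22. Changed were 15.4 percent of those tested, near the 14.5 percent of all tested genes. At an unadjusted p under 0.05, 17 of them were higher and 6 lower, where 3219 of the 9375 tested genes stood in either direction. Lzts3, a binding partner of Shank proteins, had 8 to 13 counts at 6m and 40 to 62 at 24m (log2FC 1.95, padj = 1.78e-05, edgeR). Dlg3, which encodes SAP102, a relative of PSD-95, had 10, 3, 11 and 8 counts against 10, 28, 15 and 62, with 24m replicate 4 highest (log2FC 1.46, padj = 0.00367, edgeR). Dlgap3, which links PSD-95 to Shank proteins, went from 120.5 ± 25.6 to 205 ± 17.6 CPM (log2FC 0.74, padj = 0.000363, edgeR), and Homer3, a partner of Shank proteins and group I glutamate receptors, from 45.5 ± 3.76 to 79.0 ± 31.9 CPM (log2FC 0.74, padj = 0.013, edgeR). Homer3 shares 1153 exon bases with Ddx49 on the opposite strand, and without 24m replicate 1 its log2FC was 0.46, under the limit. Of the Dlgap family, Dlgap1, Dlgap2 and Dlgap4 did not pass (log2FC 0.69, 0.97 and 0.13, padj = 0.0576, 0.110 and 0.572, edgeR).

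Presynaptic scaffolds and partners of the neurexin tail (35 in the list, 27 tested) included 6 that rose and 1 that fell, with a median log2FC of 0.11. Changed were 25.9 percent of those tested, against 14.5 percent of all tested genes. At an unadjusted p under 0.05 (edgeR), 7 of the 27 were higher and 2 lower, where 3219 of the 9375 tested genes stood in either direction. Bsn, the active zone scaffold bassoon, had 2 to 3 counts in the young libraries and 10 to 18 in the aged ones (padj = 0.00172, edgeR), and shares 1095 exon bases with Gm57046 on the opposite strand. With a mean count under 5 at 6m, Bsn was tested only through its 24m counts. Epb41l1, a protein 4.1 that ties membrane proteins to actin, went from 48.1 ± 2.90 to 108 ± 22.0 CPM (log2FC 1.16, padj = 1.52e-05, edgeR). Mpp2, a membrane-associated guanylate kinase, rose by a log2FC of 1.08 (padj = 0.00521, edgeR) and Git1, a scaffold of presynaptic and postsynaptic signalling, by 0.80 (padj = 0.000109, edgeR). The gene that fell was Pclo, which encodes piccolo, a relative of bassoon, at a log2FC of -1.32 (padj = 0.00663), named here after its value was seen. Its call was lost without 6m replicate 3.

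Regulators of neurexin and neuroligin splicing and shedding (18 in the list, 15 tested) included 2 that rose and none that fell by edgeR, with a median log2FC of 0.37. Changed were 13.3 percent of those tested, near the 14.5 percent of all tested genes. At an unadjusted p under 0.05, 2 of them were higher and 0 lower, where 3219 of the 9375 tested genes stood in either direction. Celf5, an RNA-binding protein of the brain, had 1 to 7 counts at 6m and 7 to 16 at 24m (log2FC 1.46, padj = 0.0168, edgeR). With a mean count under 5 at 6m, Celf5 was tested only through its 24m counts. Its call was lost without 6m replicate 1 (padj = 0.0567) or 6m replicate 3 (0.0736), and with DESeq2 on raw (0.0584) and quantile-normalized counts (0.109). Khdrbs1, which encodes the splicing factor Sam68, was the other, at a log2FC of 0.69 (padj = 0.0254), named after its value was seen. Both calls were lost without 6m replicate 1 or replicate 3, and 1 of them without 6m replicate 4 or 24m replicate 2.

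**Figure D5:**
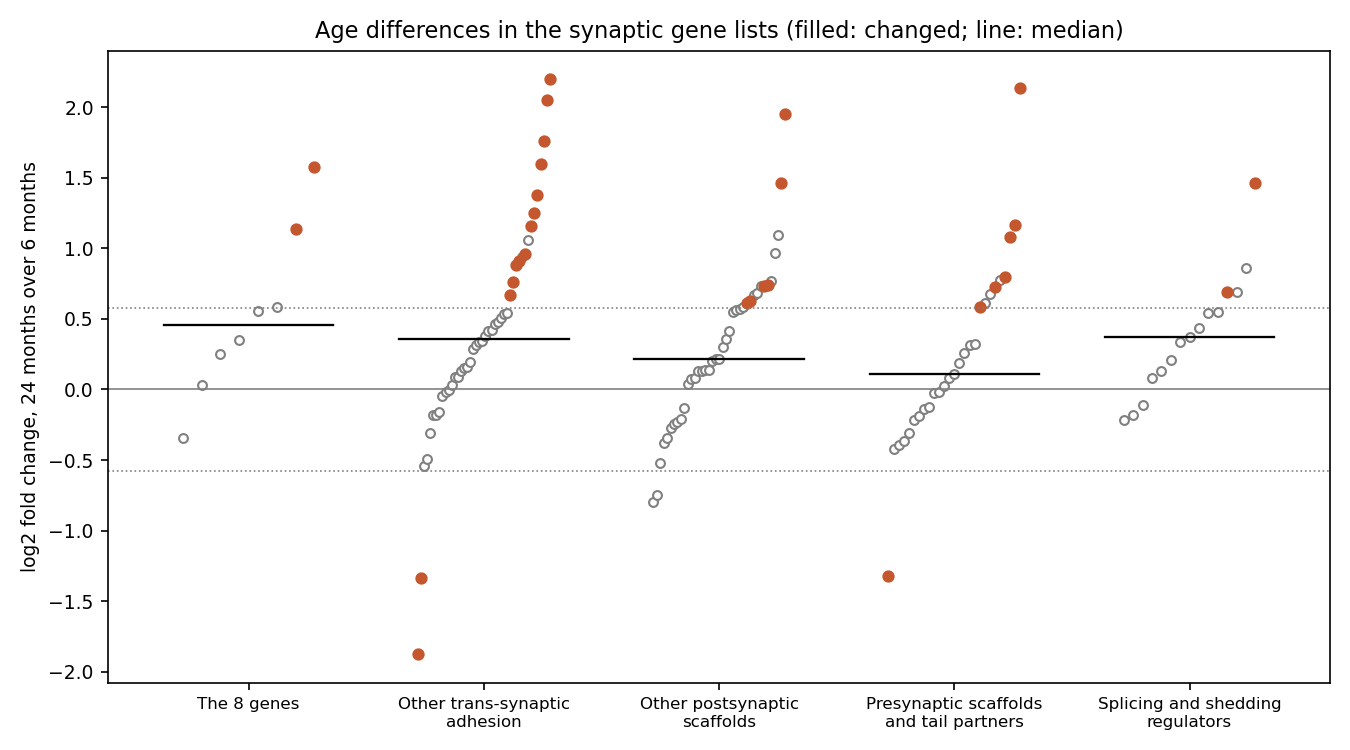
Fitted log2FC (vertical axis, 24 months over 6 months) of each tested gene in the set of 8 and in 4 lists of related synaptic genes, ordered by value within each. Filled points are changed genes, the short line is the median (0.45 for the 8 genes, 0.36, 0.22, 0.11 and 0.37 for the lists from left to right), and dotted lines mark the log2FC limit. Changed genes lie mostly above 0 in each list.

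Markers of cell types moved with age too, and their part in these results was not tested. For scale, 14.5 percent of all tested genes were changed, 10.3 percent being higher and 4.17 percent lower at 24m. Of 14 neuronal markers 3 rose and none fell, and their summed level was 3598 to 3797 CPM at 6m and 4428 to 4864 CPM at 24m, with no overlap between the ages. Of 11 oligodendrocyte markers 2 rose (2148 to 2710 and 2944 to 3813 CPM), and of 9 tested microglial markers 2 rose (806 to 866 and 999 to 1271 CPM). Of 9 tested astrocyte markers 3 rose and 2 fell (2710 to 3188 and 2692 to 3402 CPM), and of 3 tested endothelial markers none changed. All 5 blood markers fell (6090 to 10032 and 3350 to 6283 CPM). None of these lists held a gene without a count.

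All 8 genes have long transcripts, with canonical lengths from 5472 bases for Dlg4 to 11807 for Nlgn1, and the share of counts on genes with transcripts over 5000 bases was 7.59 to 7.94 percent at 6m and 7.88 to 8.80 percent at 24m. Among tested genes with transcripts of 4000 to 5500 bases, the length class of Dlg4, the median log2FC was 0.12 and 16.0 percent were changed and higher. Among those of 5500 to 7000 bases, that of Nlgn2 and Nrxn2, the median log2FC was 0.11 and 11.8 percent were changed and higher. Between 7000 and 9000 bases, the class of Shank3, Nrxn3 and Nlgn3, the median log2FC was 0.0017 and 11.5 percent were changed and higher. Over 9000 bases, the class of Nlgn1 and Shank1, the median log2FC was -0.19, 5.73 percent were changed and higher and 16.9 percent changed and lower. The part of transcript length in the results for the 8 genes was not tested.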

How the data were processed

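The authors deposited unscaled read counts for each gene, from direct RNA nanopore reads of 8 brain hemispheres, 1 per mouse. Per the study's methods and the submitters' processing notes, reads were mapped to GRCm39 with minimap2 2.24 and counted with featureCounts. Strand, overlap and multi-mapping settings are not given in the sources used here. The sample labels name a cDNA library kit, whereas the methods describe direct RNA sequencing. All count columns were mapped to samples by their labels.

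Of the 22430 genes, 22281 were matched to GENCODE vM39, which gave symbols, positions, canonical transcripts and, from the GRCm39 genome, sequences. Genes with a mean count over 5 across both ages were fitted with edgeR 4.0.16 in R 4.3.3 (quasi-likelihood test, TMM scaling, age as the only term), with Benjamini-Hochberg adjustment over all 9375. A gene with few counts at an age can pass this limit through its counts at the other. CPM use the TMM-scaled library sizes, and SE come from the log2FC and the F statistic. Ratios had 0.5 added to each count and were tested by exact permutation over 70 arrangements. The p-values rest on the spread between libraries, 1 per mouse, in which differences between mice and those of library making and sequencing cannot be separated. The fits were run on counts simulated with 200 changed genes and a dispersion shared by all genes, and the permutation test on constructed values. These runs check the code and not how the tests perform on the real counts. Near-identical transcripts were searched with BLAST+ 2.17.0. Where all libraries of an age held at most 3 counts, no fold is given.

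The 8 genes and all lists were chosen with earlier results of these data known. Besides the 8, the genes named from each of the 4 pathway lists are, among the changed genes that had no overlap of CPM between young and aged libraries, up to 4 with the highest and 4 with the lowest log2FC. A gene that this rule selects is not reported here. Alternatives were DESeq2 1.42.0 with and without quantile normalization, limma-voom (limma 3.58.1), other scalings and filters, mitochondrially encoded genes left out, an adjusted p alone, a replicate block and each library left out.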

Additional observations from a re-analysis of the deposited data

Results flagged for a closer look

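In 32 groups of 4 values of 1 age (the 8 genes, the 5 ratios and 3 library measures), 3 held a library far from the other 3 by Dixon's ratio, where chance gives about 1 in 20. Nlgn1 stood at 6.15 CPM in 6m replicate 1 and at 10.8 to 11.3 CPM in the others, from 5 counts against 6 to 9. Shank3 stood at 21.8 CPM in 24m replicate 3 and at 12.3 to 13.7 CPM in the others, and the padj of Shank3 was 0.108 without that library. The total of 6m replicate 2 was 573152 counts, against 818963 to 843706 in the others, and without it the same 2 of the 8 genes were changed.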

How the results depend on the processing

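Nlgn2 kept its call in all 19 alternatives of the fit, and Shank3 in 12 of them; over all 19 the log2FC of Shank3 was 0.94 to 1.30. With DESeq2 on raw counts, DESeq2 on quantile-normalized counts and limma-voom, 1 of the 8 genes was changed, and with single libraries left out 1 to 3. Nlgn1 turned to a log2FC of -0.01, -0.26 and -0.27 with these, to -0.077 with the replicate block, and ran from -0.29 to 0.31 with single libraries left out (below 0 without 6m replicate 1, 24m replicate 3 or 24m replicate 4, at -0.14, -0.02 and -0.29). DESeq2 called 834 and 819 of all tested genes, where edgeR called 1359. Of the adhesion list 9, 7 and 9 genes were changed with those 3 tools, 9 with filterByExpr and 9 to 14 with libraries left out. Of the regulators these were 0, 0, 1, 1 and 0 to 3. Of the other postsynaptic scaffolds 11 were changed with library sizes alone or no filter, and 10 with a total count over 5 or an adjusted p alone. The share of changed genes that were higher was 84.5% with library sizes alone, which moved the median log2FC to 0.10, 59.2% with limma-voom, 56.7% with an adjusted p alone and 66.8% with DESeq2 on quantile-normalized counts. The causes were not tested. Of 274 alternative values of the named list genes, 261 kept their call and 13 lost it. Fits in which a gene was not tested or got no adjusted p are left out of these numbers. For Ephb2 and Nptx1 that leaves 15 values each, where genes with more counts had 19. Same-numbered libraries did not deviate together (correlations 0.065, -0.010, 0.0051 and -0.16); with the replicate block 1308 genes and 2 of the 8 were changed. For the ratios, the block cannot give a p under 0.125. Of the 8 genes, 6 had at most 242 counts in all, which limits what could be detected.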

Other observations

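Since Nlgn2 belongs to inhibitory synapses, some inhibitory genes of the lists are given here, chosen after the values of Nlgn2 were seen. Gphn, which encodes gephyrin, the scaffold to which Nlgn2 binds, had 12, 11, 18 and 13 counts at 6m and 11, 10, 17 and 34 at 24m. Its log2FC was 0.08 with a 95 percent interval of -0.53 to 0.68 (padj = 0.889, edgeR). Iqsec3, a gephyrin partner, had a log2FC of 1.09 with 4 to 7 counts at 6m and 5 to 17 at 24m (padj = 0.0519, edgeR). Neither gene passed, and both overlapped between the ages. The interval of Gphn lies below that of Nlgn2, which began at 1.06, but the difference between the genes was not tested.

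On the presynaptic side of the same synapses, Gad1, which makes GABA, rose with a log2FC of 0.75 (padj = 0.00386, edgeR). Its highest count, 310, came from 24m replicate 4, and the ages overlapped. Gad2, the other enzyme that makes GABA, had a log2FC of -0.48 (95 percent interval -1.07 to 0.11, padj = 0.243, edgeR). Slc32a1, the vesicular GABA transporter, went from 160.0 ± 26.2 to 203 ± 13.8 CPM, with a log2FC of 0.34 that is under the limit (padj = 0.0435, edgeR). Igsf21, an adhesion protein of inhibitory synapses known to bind Nrxn2, stood at 114 ± 2.85 CPM at 6m and 77.4 ± 14.1 CPM at 24m. All its aged libraries lay under the young ones, and its log2FC of -0.54 was just short of the limit (padj = 0.00974, edgeR).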
